A study of Mus musculus with 12 samples.

Results

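Autosomal genes were compared between undifferentiated cells of 2 mouse embryonic stem cell lines, Pgk12.1 (female, WT) and E14 (male, WT). Every gene of the count table that an annotation placed on an autosome was taken, after Rn45s and Lars2 were dropped. This gave 22064 of the 23334 genes left in the table, and 9738 of them had enough counts to be tested. Pgk12.1 replicates 1 and 2 were set against E14 replicates 1 and 2. Both lines were grown with LIF, and C57BL/6 is given as the strain of both, which was not tested here. The series also holds 2 undifferentiated libraries of a female line labelled RlimKO, which enter the model to estimate spread and are given beside results. It further holds 2 differentiated libraries of each line. Those cells formed embryoid bodies for 3 days without LIF and were then cultured for 6 days in 7.5% oxygen. The series was made to compare X inactivation between these cells. Each sex is represented by 1 WT line, so sex, line and genetic background cannot be told apart in any value below.

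Mouse embryonic stem cells kept with LIF hold a network of naive pluripotency factors around Oct4, Sox2 and Nanog. LIF acts through Stat3 to sustain that network, and FGF signalling through ERK drives exit from it towards a formative state with more DNA methyltransferase and less naive factor RNA. Stem cell lines are also known to gain or lose copies of chromosomes or parts of them in culture, and to vary in the marks on imprinted genes, which are expressed from a single parental copy.

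The 4 libraries held 946043 to 2309448 counts after Rn45s, a ribosomal RNA precursor, and Lars2 were removed. Rn45s had taken 39.3% to 55.0% of their counts and Lars2 3.11% to 7.22%. Levels are given as CPM, counts scaled to a library size of 1000000. Differences are log2 fold changes of Pgk12.1 over E14 with a standard error (SE). For edgeR the SE was not estimated directly. It is the absolute log2 fold change divided by the square root of the F statistic of the test. For genes with few counts it can fall below counting error. A gene was called higher or lower when its p from the edgeR quasi-likelihood test, adjusted by Benjamini-Hochberg over all genes tested, was below 0.05, with n = 2 libraries per line. Nothing in the labels says that replicates came from separate cultures. The p-values therefore rest on the spread between these libraries alone, and that spread may be technical. All 10 stem cell markers were present in all 4 libraries, with summed levels of 4456 and 4712 CPM in Pgk12.1 and 4432 and 4494 CPM in E14.

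Of the 9738 autosomal genes, 1645 (16.9%) were called, 796 higher (8.17%) and 849 lower (8.72%) in Pgk12.1, and the median log2 fold change was -0.02. At least a 2-fold difference was reached by 273 of the higher and 375 of the lower genes. Leaving out 1 library gave 879 and 995 calls (without Pgk12.1 replicate 1 and 2) or 952 and 1100 calls (without E14 replicate 1 and 2), and 447 genes were called in all 4 of these fits. A model of all 12 libraries called 653 autosomal genes, and DESeq2 called 725 (7.45%), 376 higher (3.86%) and 349 lower (3.58%). The libraries of the lines did not overlap in 5486 of the genes tested (56.3%). The shares of 8.17% higher and 8.72% lower are the ones to set beside every gene list below.

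The largest rises in Pgk12.1 were of genes that E14 barely expressed. Msln, encoding the surface protein mesothelin (chr17:25748613-25754378), stood at 62.9 and 59.4 CPM in Pgk12.1 and at 1.46 and 2.16 CPM in E14. The groups lay far apart, with a log2 fold change of 4.94 ± 0.41 (SE, edgeR adjusted p = 4.64e-13). Emp1, an epithelial membrane protein gene (chr6:135362550-135383173), was measured at 81.3 and 87.6 CPM against 8.06 and 6.49 CPM (3.56 ± 0.30, edgeR adjusted p = 6.54e-13). Smyd1, a histone methyltransferase gene known from heart and skeletal muscle (chr6:71213940-71262281), had 40.1 and 59.4 CPM in Pgk12.1. In E14 it had 0 and 2.16 CPM (5.12 ± 0.49, edgeR adjusted p = 3.85e-11). All 3 genes were at or above 40.5 CPM in both RlimKO-labelled libraries, near Pgk12.1 and not near E14.

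Dnajc5g, a member of the DnaJ co-chaperone family, had 17.4 and 14.6 CPM in Pgk12.1 and no count in E14. Against the 3 counts that a total of 0 allows, it was at least 19.5-fold higher (edgeR adjusted p = 8.96e-07). Rcsd1, whose product binds actin capping protein, had 35.8 and 26.3 CPM in Pgk12.1 and 3 counts in all in E14. That is a ratio of 37.7 with a 95% interval of 12.3 to 188, which covers counting error only. The RlimKO-labelled libraries held 6.14 and 6.13 CPM of Rcsd1, between the WT lines. Hopx (an atypical homeodomain protein), Mypn (a sarcomere protein) and Pou4f2 (a POU factor of retinal neurons) rested on 2, 2 and 3 counts in E14. Their count ratios were 25.5 (95% interval 6.40 to 221), 20.8 (5.10 to 182) and 16.3 (5.01 to 84.4). Lonrf2, Nsg2, Ak7 and Tmprss5 were higher by 3.18 to 3.50 on the log2 scale, at 14.1 to 18.5 CPM in Pgk12.1. The histone gene Hist1h4n was also higher (3.71 ± 0.53), but near-identical histone copies make its count uncertain. Mypn was not called without E14 replicate 2.

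Among the largest falls were genes of actin filaments, matrix and secreted signals. Lef1, a transcription factor of the WNT pathway (chr3:131110297-131224357), had 4.34 and 7.79 CPM in Pgk12.1 against 48.3 and 61.0 CPM in E14. It fell by 3.15 on the log2 scale (SE 0.39, edgeR adjusted p = 2.62e-08), and the RlimKO-labelled libraries, at 9.83 and 7.0 CPM, lay beside Pgk12.1. Thbs1, encoding the matrix protein thrombospondin, had 4.34 and 3.89 CPM against 54.9 and 42.4 CPM (-3.52 ± 0.48, edgeR adjusted p = 2.66e-07). Irs1, the insulin receptor substrate, was at 1.08 and 2.92 CPM in Pgk12.1 and at 24.9 and 23.3 CPM in E14 (-3.49 ± 0.61, edgeR adjusted p = 2.73e-05). Wnt7b, a WNT ligand gene, had no count in Pgk12.1 and 11 and 9.51 CPM in E14, so it was at least 6.54-fold lower. Without E14 replicate 1 it was not called. The interferon-induced Gbp1 had 4.34 and 1.95 CPM in Pgk12.1 against 28.6 and 29.4 CPM in E14 and no count in the RlimKO-labelled line.

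The type I collagen genes Col1a1 and Col1a2 were also among these falls. Col1a1 had 2.17 and 1.95 CPM in Pgk12.1 and 34.4 and 25.1 CPM in E14, while the RlimKO-labelled libraries differed from each other, at 0 and 26.3 CPM. Igf2, a growth factor gene, showed the same split: 1.08 and 5.84 CPM in Pgk12.1, 30.8 and 31.6 CPM in E14, and 1.23 and 35.0 CPM in the RlimKO-labelled line. Markers of fibroblasts and feeder cells, 15 in all, summed to 46.6 and 61.3 CPM in Pgk12.1, 175 and 133 CPM in E14, and 45.5 and 168 CPM in the RlimKO-labelled line. Of these, 6 were tested and 3 were lower (Col1a1, Col1a2 and Col3a1), while Fap and Prrx1 had no count in the 4 libraries and Dcn and Lox at most 3 counts in either line. DESeq2 called 1 of these markers lower (Col1a2), and the model of all 12 libraries called 0, with an edgeR adjusted p of 0.0512 for Col1a1, 0.113 for Col1a2 and 0.405 for Col3a1. The part of other cells in the falls of matrix and actin genes was not tested. Acta2, Tap1, Klk8, Cd109, Tmem191c and Sema6a rested on 2 or 3 counts in Pgk12.1, with count ratios of 9.81 to 19. The calls of Tap1 and Klk8 were lost without Pgk12.1 replicate 2, E14 replicate 1 or E14 replicate 2, that of Cd109 without Pgk12.1 replicate 1 or either E14 library, and that of Tmem191c without any 1 of the 4. Sema6a was not called without E14 replicate 1, Igf2 without Pgk12.1 replicate 1, and Col3a1 without either Pgk12.1 library.

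**Figure D1:**
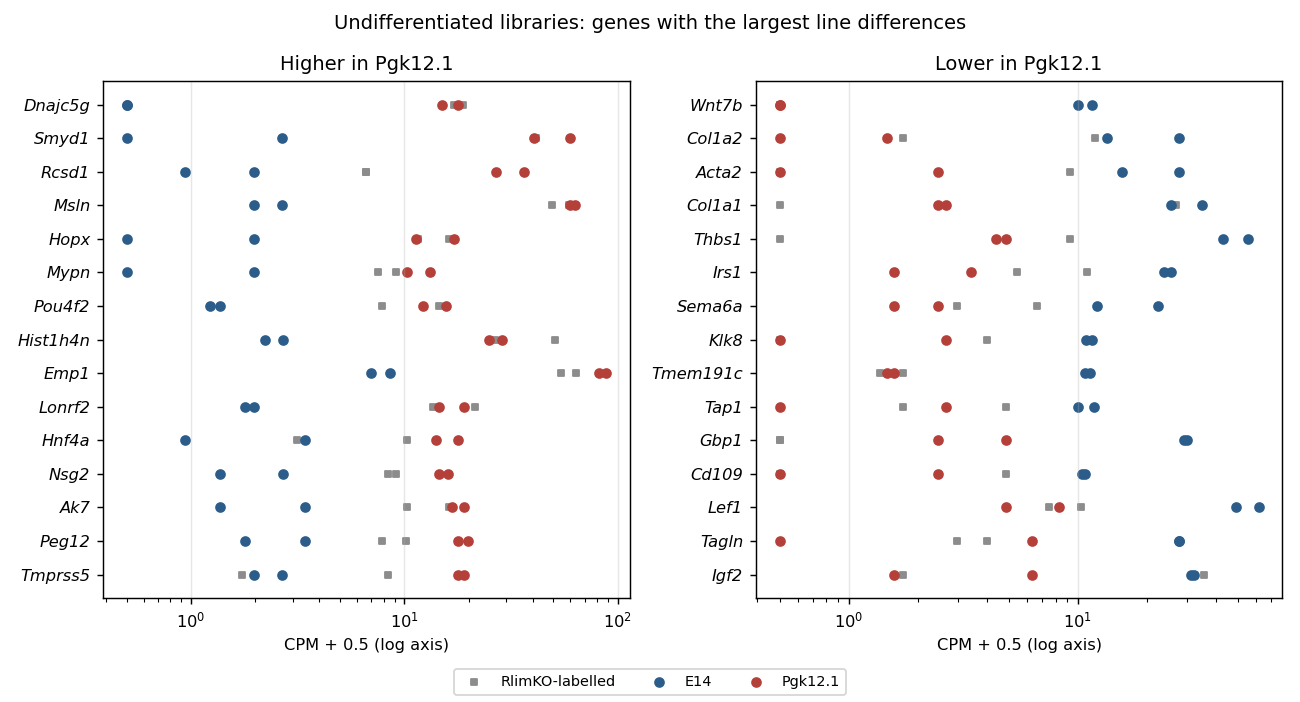
CPM + 0.5 on a log axis, by library, of the 15 autosomal genes with the largest rises (left) and the 15 with the largest falls (right) in undifferentiated Pgk12.1 against E14. Each point is 1 library, and the libraries of Pgk12.1 and E14 do not overlap for any gene, which the choice of these genes required. Grey squares show the RlimKO-labelled libraries.

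Naive pluripotency factors were more often higher than lower in Pgk12.1. Of 20 tested, 8 were higher (40%, against 8.17% of all autosomal genes) and 1, the adhesion gene Pecam1 (named after its value was seen), was lower, with a median log2 fold change of 0.35. Nanog (chr6:122707489-122714633) stood at 531 and 521 CPM in Pgk12.1 against 302 and 299 CPM in E14. The RlimKO-labelled libraries were between the 2 lines at 362 and 390 CPM. The rise of Nanog was 0.81 ± 0.13 (edgeR adjusted p = 2.95e-06). Tcl1, a coactivator of the kinase Akt (chr12:105216753-105222737), had 188 and 224 CPM against 63.0 and 66.2 CPM (1.67 ± 0.17, edgeR adjusted p = 7.92e-11). Tcl1 sits in the raised distal run of chromosome 12 described below.

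Fgf4, the FGF ligand of stem cells, had 333 and 346 CPM against 220 and 227 CPM (0.60 ± 0.13). Klf5 and Klf4, zinc finger factors of the network, were higher by 0.87 ± 0.21 and 0.76 ± 0.19. Gbx2 (2.04 ± 0.52), Esrrb (0.38 ± 0.12) and Tbx3 (0.56 ± 0.20), transcription factors named here after their values were seen, were the other members higher. The core factors Pou5f1 (log2 fold change 0.17) and Sox2 (-0.02) were not called, and neither was Zfp42 (-0.12). The naive list had 5, 6, 6 and 5 higher members without Pgk12.1 replicate 1, Pgk12.1 replicate 2, E14 replicate 1 and E14 replicate 2, the order used for such counts from here on. DESeq2 called 6 higher, and the model of all 12 libraries called 2. Klf4 was not called without E14 replicate 1, Klf5 and Esrrb without Pgk12.1 replicate 1 or E14 replicate 2, Gbx2 without Pgk12.1 replicate 2, and Tbx3 and Pecam1 without any 1 of the 4. Outside chromosome 8 and the raised stretches described below, 7 of 17 were higher.

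Genes of the formative and primed states went the other way. Of 13 tested, none was higher and 7 were lower (53.8%, against 8.72% of all autosomal genes), with a median of -0.78. None of these lies on chromosome 8 or in a described stretch. Dnmt3b, a de novo DNA methyltransferase (chr2:153649411-153687730), had 204 and 227 CPM in Pgk12.1 and 407 and 425 CPM in E14 (-0.95 ± 0.14, edgeR adjusted p = 6.94e-07). The RlimKO-labelled libraries held 241 and 212 CPM of Dnmt3b, level with Pgk12.1. Its partner Dnmt3a was lower by less (-0.54 ± 0.16), and Sox4 was at 9.76 and 17.5 CPM against 36.6 and 37.6 CPM (-1.42 ± 0.35). Otx2, Zic5 and Sall2, transcription factors chosen after their values were seen, completed the list of falls with Lef1. In the 4 fits that left out Pgk12.1 replicate 1, Pgk12.1 replicate 2, E14 replicate 1 or E14 replicate 2, 4, 3, 3 and 6 members were lower. DESeq2 and the model of all 12 libraries each called 3. Dnmt3a was lost from the calls without Pgk12.1 replicate 1 or 2 or E14 replicate 1, and Sox4 without Pgk12.1 replicate 1. The calls of Otx2, Zic5 and Sall2 were lost without Pgk12.1 replicate 2 or E14 replicate 1. Lef1 and Dnmt3b were called in all 4 fits.

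The broader pluripotency genes showed no such split by state. Of 17 tested, 1 was higher (L1td1, an RNA-binding protein, 0.75 ± 0.11) and 5 were lower, with a median of 0.03. Lin28a, which blocks maturation of let-7 microRNAs, had 251 and 245 CPM against 404 and 411 CPM (-0.72 ± 0.13, edgeR adjusted p = 7.97e-05). The chromatin gene Phc1, the small RNA-binding protein gene Dppa5a and the zinc finger gene Sall4 fell by 0.57, 0.56 and 0.50. Utf1, named after its value was seen, was the fifth (-0.72 ± 0.22). Without Pgk12.1 replicate 1, Dppa5a and Utf1 were not called and 3 members were lower. DESeq2 called 4 lower, and the model of all 12 libraries 1 lower and 0 higher.

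**Figure D2:**
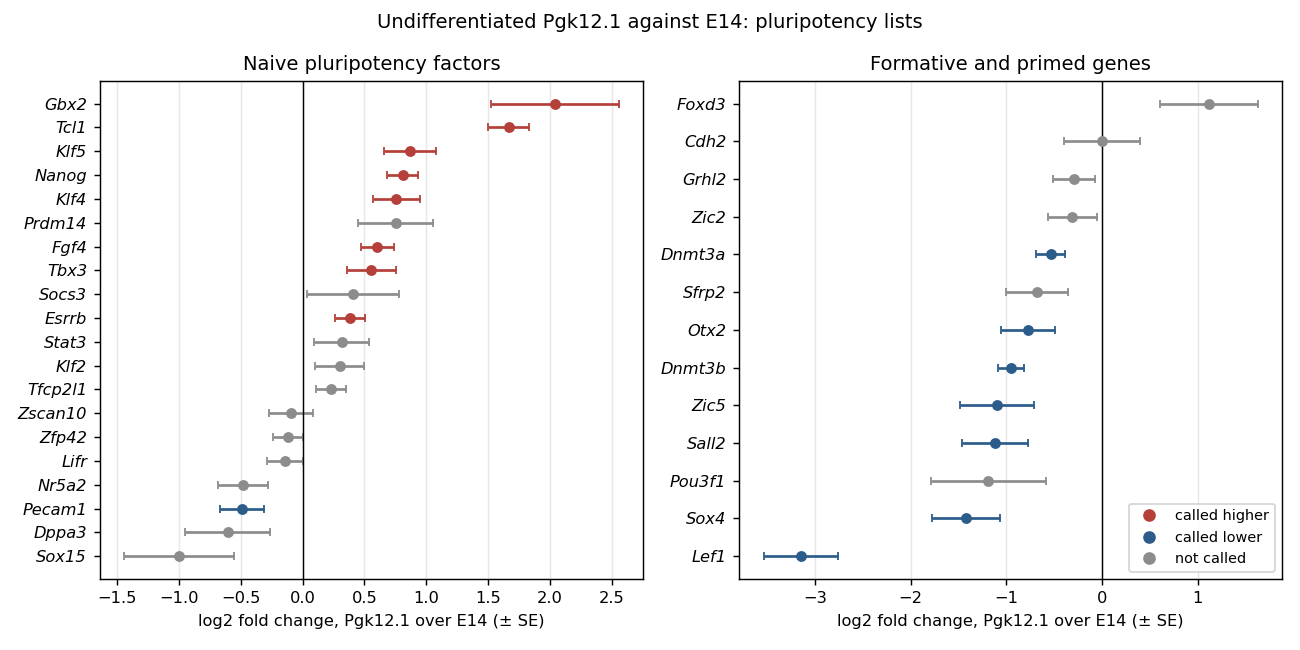
Log2 fold change of undifferentiated Pgk12.1 over E14 (± SE, n = 2 libraries per line) of all tested naive pluripotency factors (left) and formative and primed genes (right). Red points were called higher, blue points lower and grey points were not called: 8 of 20 naive factors lie to the right as called, and 7 of 13 formative and primed genes to the left.

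Signals that act on this network differed gene by gene. Lefty2, a secreted inhibitor and target of Nodal (chr1:180893108-180899107), had 371 and 459 CPM in Pgk12.1 and 114 and 124 CPM in E14. It was higher by 1.80 ± 0.14 (edgeR adjusted p = 1.14e-13), and the RlimKO-labelled libraries stood above both lines at 505 and 486 CPM. Inhbb, an activin subunit, was at 39.0 and 31.1 CPM against 10.3 and 10.4 CPM (1.75 ± 0.36). Skil, a repressor of SMAD signalling, fell by 0.92 (SE 0.13, edgeR adjusted p = 7.78e-07). These were the 3 calls among 15 Nodal and BMP genes tested. In the ERK list 3 of 16 were higher and 4 lower. The feedback inhibitor Spry4 (105 and 105 CPM against 52.0 and 49.3 CPM) and the factor Etv1 (1.61 ± 0.33) were higher, whereas the phosphatase gene Dusp6 (-1.13 ± 0.28) and the inhibitor Il17rd (-0.91 ± 0.19) were lower. Among 8 WNT targets 2 were higher, the inhibitor genes Sfrp1 and Notum (1.44 ± 0.17 and 1.25 ± 0.29), and 3 were lower, Lef1, Tcf7 and the receptor gene Fzd7, named after its value was seen. Without Pgk12.1 replicate 2 or E14 replicate 1 only 1 of these 3 was lower. Dusp6 was not called without Pgk12.1 replicate 1, which left 2 lower in the ERK list. Of the WNT targets, DESeq2 called 2 higher and 1 lower, and the model of all 12 libraries 1 of each. Outside chromosome 8 and the raised stretches described below, 1 of 7 WNT targets was higher and 3 were lower.

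Targets of hypoxia-inducible factor (HIF) were called lower in Pgk12.1 more often than higher. HIF binds DNA at short sites that can hold the letters ACGTG, the only form counted here. The oxygen sensors of the Egln family mark its alpha subunit for breakdown. Of 30 targets tested, 11 were lower (36.7%, against 8.72%), 2 higher and 17 not called, with a median of -0.30. The promoters of 4 lower members are shown because they can be read against this motif. They run from 250 bases before to 50 bases after the start in RefSeq on GRCm38.p6, 5′ to 3′ on the gene's strand, and capitals mark ACGTG on either strand, overlapping matches joined.
Egln3 (chr12:54203825-54204124, minus strand): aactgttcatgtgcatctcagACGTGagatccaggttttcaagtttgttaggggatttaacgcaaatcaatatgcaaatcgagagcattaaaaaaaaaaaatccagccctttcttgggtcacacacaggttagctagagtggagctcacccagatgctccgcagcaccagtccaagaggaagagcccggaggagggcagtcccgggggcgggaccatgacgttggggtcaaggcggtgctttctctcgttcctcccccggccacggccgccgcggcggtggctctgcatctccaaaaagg
Bnip3 (chr7:138909457-138909756, minus strand): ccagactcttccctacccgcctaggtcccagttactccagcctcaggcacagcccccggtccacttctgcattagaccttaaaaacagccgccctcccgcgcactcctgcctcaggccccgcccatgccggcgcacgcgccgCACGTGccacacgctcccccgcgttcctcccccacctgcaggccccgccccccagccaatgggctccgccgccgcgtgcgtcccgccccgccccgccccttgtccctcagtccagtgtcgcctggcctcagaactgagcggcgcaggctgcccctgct
Hif3a (chr7:17062378-17062677, minus strand): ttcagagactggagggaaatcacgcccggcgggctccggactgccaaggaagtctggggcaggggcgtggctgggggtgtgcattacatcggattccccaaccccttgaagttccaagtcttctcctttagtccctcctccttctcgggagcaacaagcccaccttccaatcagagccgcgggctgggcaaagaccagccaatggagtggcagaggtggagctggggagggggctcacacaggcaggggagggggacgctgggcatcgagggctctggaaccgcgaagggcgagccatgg
Ldha (chr7:46845554-46845853, plus strand): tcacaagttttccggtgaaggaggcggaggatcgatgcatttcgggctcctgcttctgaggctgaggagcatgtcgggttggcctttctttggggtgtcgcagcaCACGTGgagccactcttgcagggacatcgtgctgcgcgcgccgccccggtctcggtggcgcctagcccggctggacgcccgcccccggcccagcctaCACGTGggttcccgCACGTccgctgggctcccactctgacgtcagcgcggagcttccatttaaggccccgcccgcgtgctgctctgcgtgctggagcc

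Egln3 has 1 match, Bnip3 has 2, Ldha has 5 and Hif3a has 0, counting each strand. Of the 11 lower HIF targets, 9 promoters (81.8%) hold the motif, as do 16 of the 23 tested targets with a promoter in the table (69.6%). Among all autosomal genes tested the share is 27.0% of 7070 promoters, and among all genes called lower it is 24.5% of 628. It is 19.7% of 27025 promoters of this length in all. A match describes the letters only. Other forms of the HIF site were not counted, so 0 matches does not mean that a promoter lacks a site.

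Egln3, an oxygen sensor and itself a HIF target, had 10.8 and 18.5 CPM in Pgk12.1 against 62.3 and 55.3 CPM in E14 (-1.97 ± 0.31, edgeR adjusted p = 2.95e-06). Bnip3, a mitophagy receptor, had 67.2 and 78.8 CPM against 145 and 166 CPM (-1.09 ± 0.19, edgeR adjusted p = 1.7e-05). Hif3a, an alpha subunit of the factor, had 9.76 and 15.6 CPM against 44.7 and 48.9 CPM (-1.87 ± 0.34). For each of the 3 genes both E14 libraries were above both Pgk12.1 libraries, which their choice among called genes made likely. Libraries did not overlap in 1641 of the 1645 called genes and in 56.3% of all tested. Lactate dehydrogenase gene Ldha, chosen after its value was seen, had 573 and 629 CPM against 924 and 918 CPM (-0.62 ± 0.12). The members higher were Kdm3a, a histone demethylase at 210 and 272 CPM against 116 and 119 CPM (1.03 ± 0.16), and Hif1a, the main alpha subunit (0.53 ± 0.15). Kdm3a lies in the raised stretch of chromosome 6. Hif1a was not called without Pgk12.1 replicate 2 or E14 replicate 1, by DESeq2 or in the model of all 12 libraries. Leaving out Pgk12.1 replicate 1 or 2, or E14 replicate 1 or 2, left 7, 8, 7 and 9 lower members. DESeq2 and the model of all 12 libraries each called 7 lower.

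Glycolytic enzymes and transporters, which share the lower calls of Ldha, Slc2a1 and Aldoc, were lower as well, 11 of 20 tested (55.0%), with 2 higher and a median of -0.40. Ldhb, the other lactate dehydrogenase subunit (chr6:142490249-142507957), showed the widest gap, with 91.1 and 80.8 CPM in Pgk12.1 and 369 and 305 CPM in E14. It fell by 1.97 (SE 0.17, edgeR adjusted p = 9.24e-13), and the RlimKO-labelled libraries held 88.5 and 114 CPM. Gpi1, the second enzyme of the pathway, had 242 and 311 CPM against 623 and 499 CPM (-1.01 ± 0.14). Pfkl, a phosphofructokinase, fell by 0.98 (SE 0.16), and the pyruvate kinase gene Pkm2 had 2246 and 2484 CPM against 3579 and 3437 CPM (-0.57 ± 0.10). Gapdh was higher (0.66 ± 0.17), but its many processed copies in the genome make its count uncertain. Slc16a1, a lactate transporter named after its value was seen, was the other (0.45 ± 0.16), and 1 gene was higher in each fit that left out a library. Without Pgk12.1 replicate 1 or E14 replicate 1, 7 were lower, and without either other library 9 were. DESeq2 called 8 lower, and the model of all 12 libraries 7. Of 73 subunits of oxidative phosphorylation, 7 were higher (9.59%, near the 8.17% of all autosomal genes) and 1 lower, with a median of 0.04. Leaving out each library gave 2, 3, 3 and 3 higher, DESeq2 3 and the model of all 12 libraries 1.

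After differentiation several of these genes stood on the other side. Of 11862 autosomal genes tested in the model of all 12 libraries, 1080 (9.1%) differed between differentiated Pgk12.1 and E14, 545 higher (4.59%) and 535 lower (4.51%). In the HIF list 10 of 30 were then higher and 3 lower, with a median of 0.25, against -0.02 for all genes in both fits. Bnip3 had 240 and 225 CPM in differentiated Pgk12.1 and 95.2 and 115 CPM in differentiated E14 (1.13 ± 0.16, edgeR adjusted p = 0.00102). Its line difference thus changed by 2.22 ± 0.25 between states (edgeR adjusted p = 0.00052). Ldha, at 1028 and 979 CPM against 593 and 683 CPM, Pdk1 and Fam162a were also called in opposite directions in the 2 states. The last 2, a kinase that restrains pyruvate dehydrogenase and a mitochondrial HIF target, were picked after their values were seen. Slc2a1, the main glucose transporter and picked likewise, was lower in both states (in undifferentiated cells only with both Pgk12.1 libraries and E14 replicate 1 in the fit), at 736 and 687 CPM against 1713 and 1787 CPM in differentiated cells.

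In all, the line difference changed between states in 136 autosomal genes (1.15%). Of the HIF list, chosen with its undifferentiated values known, 7 were among them, 6 moving up and Slc2a1 down. The differentiated E14 libraries were far apart from each other: their chi-square divided by its degrees of freedom was 24.8, while the remaining replicate pairs gave 1.85 to 2.32. Leaving out E14 replicate 1 or 2 of that state gave 1691 and 1126 such genes, 14 and 15 of them HIF targets. Leaving out any 1 of the 6 other libraries gave 13 to 35, with 2 to 5 HIF targets, fewest without Pgk12.1 replicate 1 or 2 of that state or undifferentiated Pgk12.1 replicate 1. The calls between differentiated lines moved likewise, to 4030 and 2021 without differentiated E14 replicate 1 or 2, and to 212 and 166 without differentiated Pgk12.1 replicate 1 or 2. The HIF list then had 13, 14, 5 and 4 higher members and 7, 3, 2 and 2 lower ones. Its median was 0.15 without differentiated E14 replicate 1 and 0.49 without replicate 2.

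**Figure D3:**
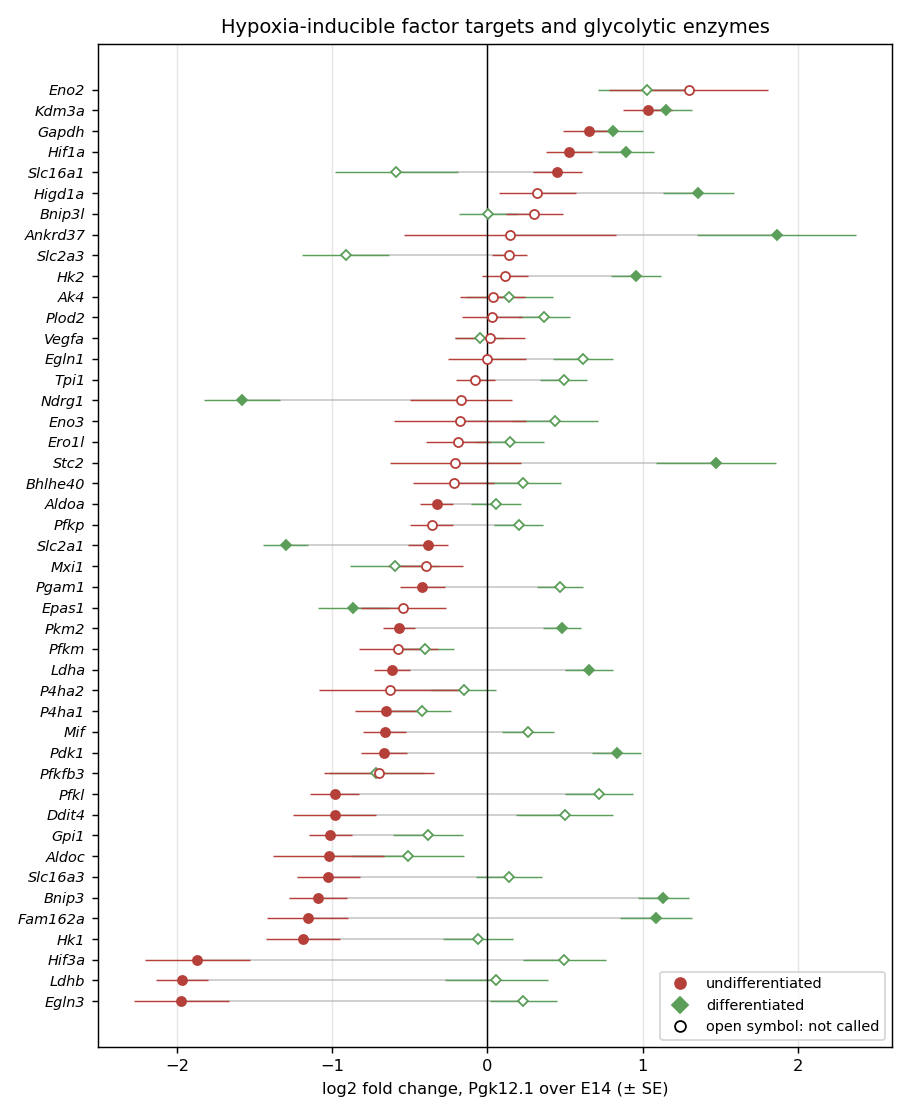
Log2 fold change of Pgk12.1 over E14 (± SE) of every tested HIF target and glycolytic gene, in undifferentiated cells (red circles, model of 6 libraries) and differentiated cells (green diamonds, model of 12 libraries). Filled symbols were called. Bnip3, Fam162a, Pdk1, Ldha and Pkm2 have filled symbols on both sides of 0.

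Genes on chromosome 8 were shifted upward as a group. Of 577 tested, 144 were higher (25.0%) and 12 lower, and their median stood 0.36 above that of all autosomal genes, a 1.28-fold difference. It was 0.29 to 0.35 in each of the 4 pairs of single libraries, and 0.29 to 0.35 in the 4 pairs of differentiated libraries, which hold other samples of the same lines. All 14 runs of neighbouring tested genes on this chromosome had a median above 0, from 0.13 to 0.50. Chromosome 8 took 5.93% and 5.99% of autosomal counts in Pgk12.1, 4.62% and 4.50% in E14, and 6.07% and 5.98% in the RlimKO-labelled line. The differentiated libraries showed 6.07% and 6.05% against 4.63% and 4.64%. Thus the E14 libraries were the low ones in both states.

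Genes on chromosome 8 with small p in the raised runs served many functions. Slc25a4, the mitochondrial ADP/ATP carrier, had 267 and 259 CPM against 111 and 103 CPM (1.30 ± 0.15, edgeR adjusted p = 4.75e-09). Zfp869, a zinc finger gene, had 62.9 and 45.7 CPM against 5.13 and 10.8 CPM (2.65 ± 0.34). Calr, the calcium-binding chaperone calreticulin of the endoplasmic reticulum, had 970 and 806 CPM against 537 and 476 CPM (0.81 ± 0.12). Snx25, Vps35, Pcm1, Asna1, Rbmxl1, Atp13a1, Mt1, Bbs2, Ogfod1 and Rab8a were higher by 0.68 to 1.93. The calls of Bbs2 and Rab8a were lost without Pgk12.1 replicate 1 and that of Mt1 without E14 replicate 2. Itgb1 and Cox4i1, from the lists of adhesion and respiratory genes, are on the same chromosome and were higher by 0.96 ± 0.13 and 0.89 ± 0.13.

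The most raised stretch lay on chromosome 6. Autosomes were divided in 244 runs of neighbouring tested genes, 40 per run, and a run was described when every pair of libraries put its median more than 0.3 to the same side of the autosomal median. There were 8 such runs, all higher in Pgk12.1: 5 on chromosome 8, 2 adjoining ones on chromosome 6 and 1 on chromosome 12. The lowest pair value was 0.31 for the described run nearest the limit and 0.27 for the nearest one below it. The run at chr6:72359712-85468477 had a median of 0.93, or 1.90-fold, with 18 of 40 genes higher and 1 lower (Sfxn5, -2.06 ± 0.69, named after its value was seen and not called once any 1 of the 4 libraries was left out). Without E14 replicate 2, when fewer pairs had to pass, 16 runs passed the limit.

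Within these 2 runs of chromosome 6, a block without exception was seen once the values were known. All 43 tested genes from Eif2ak3 to Dguok (chr6:70844484-83506969) were above 0, with 29 called higher, none lower, and a median log2 fold change of 1.15 (2.22-fold). The lowest of them was Hk2, a hexokinase gene, at 0.11. The 10 tested genes before this block had a median of 0.22, and the 10 after it 0.10. Summed over the block, levels were 3566 and 3427 CPM in Pgk12.1, 1668 and 1725 CPM in E14, and 3295 and 3304 CPM in the RlimKO-labelled line. In differentiated cells they were 2896 and 2788 CPM against 1540 and 1432 CPM, and all 43 genes were again above 0, with a median of 1.06.

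Members of that block included Tmsb10, an actin monomer binder at 153 and 151 CPM against 41.0 and 51.0 CPM (1.70 ± 0.19, edgeR adjusted p = 1.1e-09). Mat2a, which makes the methyl donor S-adenosylmethionine, had 325 and 298 CPM against 149 and 154 CPM (1.04 ± 0.14). Kcmf1 (1.49 ± 0.21), the mitochondrial Immt (1.06 ± 0.15) and Ptcd3 (1.10 ± 0.15), and Mthfd2 of mitochondrial folate metabolism (0.92 ± 0.20) were also higher. Smyd1 and Kdm3a, given above, lie in the same block.

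The median of chromosome 12 stood 0.22 above that of all autosomal genes, with 75 of 366 genes higher and 18 lower. The rise did not cover its whole length and was largest near its distal end. The runs at chr12:3247428-18538114 and chr12:21111368-36156841 had medians of -0.001 and -0.16. The run at chr12:100779057-110583075 had a median of 0.68 (1.61-fold), with 24 of 40 genes higher and none lower. It was higher still in differentiated cells, 0.81 to 0.96 over the pairs, and in undifferentiated RlimKO-labelled cells against the same E14 libraries, 0.88 to 1.04. Besides Tcl1 it held Itpk1, an inositol phosphate kinase at 182 and 196 CPM against 76.2 and 62.7 CPM (1.46 ± 0.17). Wars, a tRNA synthetase, had 196 and 235 CPM against 105 and 100.3 CPM (1.07 ± 0.16). The other 17 autosomes had medians from -0.17, on chromosome 11, to 0.12, on chromosome 6 with that block included among them. On chromosome 11, 121 of 832 genes were lower (14.5%, against 8.72% of all autosomal genes) and 32 higher. Over the pairs of libraries its median was -0.20 to -0.13 in undifferentiated cells and -0.23 to -0.096 in differentiated cells. It was -0.22 to -0.16 in undifferentiated RlimKO-labelled cells against the same E14 libraries. Every run on this chromosome had a negative median, from -0.37 to -0.00015, though none was among the described runs. The gene lists were not counted outside chromosome 11.

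Chromosome 8 and the described runs held 697 of the tested genes (7.16%) and 199 of the 796 higher calls (25.0%), against 14 of the lower calls. The number of copies of any chromosome was not tested.

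**Figure D4:**
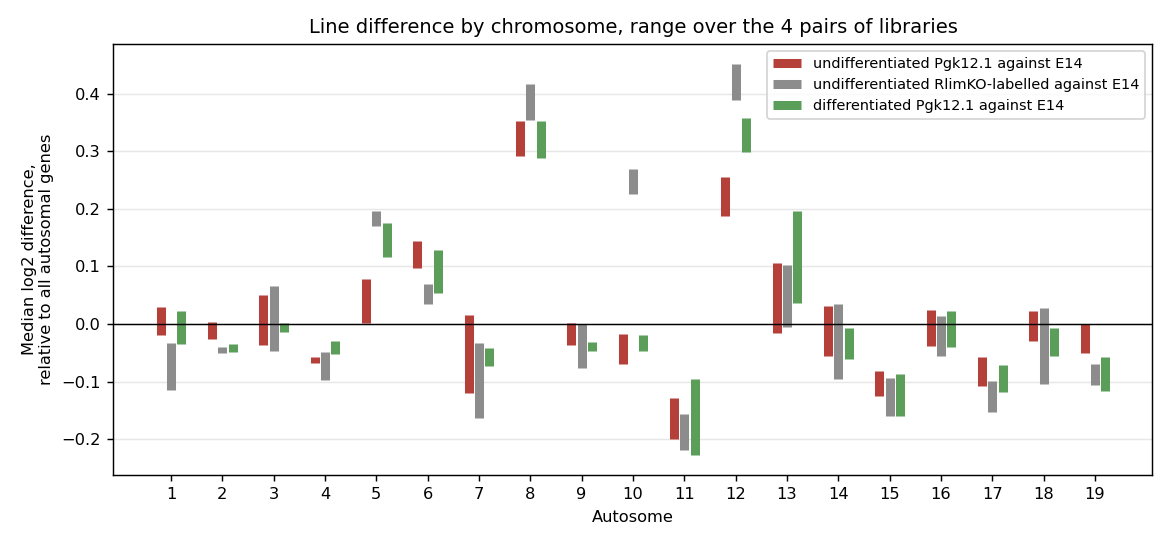
Median log2 difference by autosome, relative to the median of all autosomal genes. Each bar spans the lowest to the highest of 4 pairs of single libraries: undifferentiated Pgk12.1 against E14 (red), undifferentiated RlimKO-labelled against the same E14 libraries (grey) and differentiated Pgk12.1 against E14 (green). On chromosome 8 all 3 bars lie between 0.29 and 0.42.

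**Figure D5:**
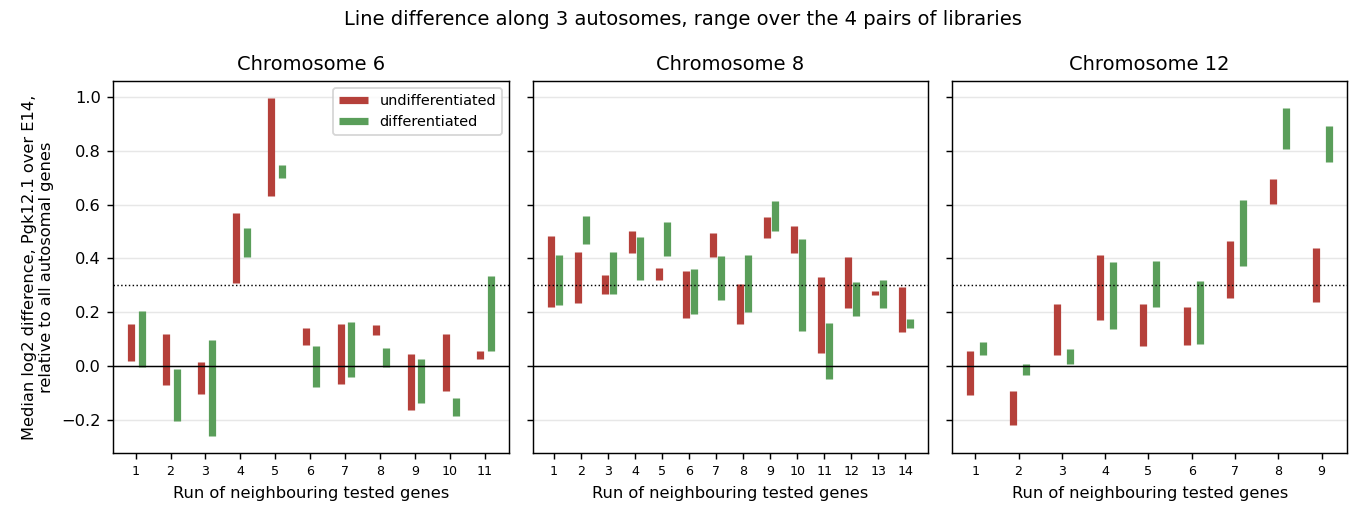
Median log2 difference of Pgk12.1 over E14 in successive runs of neighbouring tested genes on chromosomes 6, 8 and 12, relative to all autosomal genes. Bars span the 4 pairs of libraries, in undifferentiated (red) and differentiated cells (green), and the dotted line is the limit of 0.3. On chromosome 6 the rise is held by 2 adjoining runs, while on chromosome 8 all 14 runs have a median above 0.

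DNA methylation genes were called in both directions, 4 higher and 2 lower of 17. Tet1, which oxidises methylated cytosine (chr10:62804570-62887469), had 1922 and 1903 CPM in Pgk12.1 against 1082 and 1090 CPM in E14 (0.82 ± 0.11, edgeR adjusted p = 7.43e-08). The RlimKO-labelled libraries, at 1842 and 1830 CPM, were close to Pgk12.1. Zfp57, which protects imprints from demethylation, had 434 and 400 CPM against 242 and 216 CPM (0.87 ± 0.13). With Mat2a and Tet3, which both lie in the block on chromosome 6, these were the members higher, and Dnmt3a and Dnmt3b were those lower. Tet3 was named after its value was seen. DESeq2 and the model of all 12 libraries each called 4 higher and 1 lower. Of 27 Polycomb genes, 3.70% were higher and 7.41% lower, against 8.17% and 8.72% of all autosomal genes. Rnf2 was higher (0.65 ± 0.15) and Ezh1 and Phc1 were lower.

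Imprinted genes expressed from the paternal copy were higher in 9 of 19 cases (47.4%) and lower in 2, with a median of 0.42. Kcnq1ot1, a long RNA that silences its neighbours (chr7:143213111-143296547), had 1027 and 904 CPM against 435 and 514 CPM (1.02 ± 0.12, edgeR adjusted p = 5.27e-09). It overlaps Kcnq1 on the other strand, and the library type does not separate them. Mest, a hydrolase gene, had 206 and 282 CPM against 91.6 and 87.3 CPM (1.46 ± 0.16), and Impact, a translation regulator, 323 and 302 CPM against 152 and 172 CPM (0.94 ± 0.14). Peg12 had 17.4 and 19.5 CPM against 2.93 and 1.30 CPM (3.19 ± 0.61). Igf2 and, named after its value was seen, the amino acid transporter gene Slc38a4 were lower. Leaving out Pgk12.1 replicate 1 or 2, or E14 replicate 1 or 2, left 7, 5, 6 and 6 higher, and DESeq2 and the model of all 12 libraries each called 6.

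Maternally expressed genes had 3 calls up (17.6%) and 4 down (23.5%) among 17. Meg3, a long noncoding RNA, stood at 285 and 242 CPM against 181 and 158 CPM (0.64 ± 0.14), and Rian beside it at 382 and 388 CPM against 201 and 240 CPM (0.79 ± 0.13). Both lie in the raised run of chromosome 12, and both were highest in the RlimKO-labelled libraries, Meg3 at 564 and 624 CPM and Rian at 908 and 932 CPM. Grb10, a growth-limiting adaptor of receptor kinases, was lower, at 154 and 139 CPM against 376 and 364 CPM (-1.33 ± 0.15, edgeR adjusted p = 1.25e-09). In differentiated cells it stood at 47.2 and 53.3 CPM against 2027 and 1268 CPM. Igf2r, chosen after its values were seen, fell by 0.51 (SE 0.14) before differentiation, though not without Pgk12.1 replicate 2 or E14 replicate 1, and after it was at 124 and 133 CPM against 4064 and 3122 CPM. Reads of its antisense partner Airn cannot be told apart from its own. Phlda2, which limits placental growth, had 3.25 and 3.89 CPM in undifferentiated Pgk12.1 against 30.8 and 28.1 CPM (-3.00 ± 0.54). The fit without Pgk12.1 replicate 2 had 2 lower in this list. DESeq2 called 2 higher and 3 lower, and the model of all 12 libraries 0 higher and 3 lower.

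Actin genes and targets of SRF or YAP were lower in 10 of 26 cases (38.5%) and higher in 3, with a median of -0.63. Tpm1, a tropomyosin, had 83.5 and 84.7 CPM against 219 and 191 CPM (-1.28 ± 0.18, edgeR adjusted p = 3.14e-07). Cnn2, a calponin, had 11.9 and 19.5 CPM against 65.9 and 73.9 CPM (-2.14 ± 0.30). The smooth muscle genes Tagln and Acta2 were at most 5.84 CPM in Pgk12.1 and at least 15.1 CPM in E14. The RlimKO-labelled libraries held 2.46 and 3.50 CPM of Tagln and 0 and 8.75 CPM of Acta2. Acta2 was not called by DESeq2 (DESeq2 adjusted p = 0.236), though it was in the model of all 12 libraries (edgeR adjusted p = 0.0088). Against these, Myh9, the heavy chain of nonmuscle myosin, was higher, at 593 and 630 CPM against 300.3 and 253 CPM (1.15 ± 0.13). When each library was left out, 8, 6, 7 and 8 were lower, DESeq2 called 5, and the model of all 12 libraries 6.

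Matrix genes were lower in 10 of 25 cases (40%) and higher in 3, which became 1 without Pgk12.1 replicate 1 or E14 replicate 2. DESeq2 called 8 of them lower and the model of all 12 libraries 5. Fn1, encoding fibronectin (chr1:71585473-71653280), had 749 and 689 CPM against 1890 and 1463 CPM (-1.22 ± 0.12, edgeR adjusted p = 5.05e-11). The laminin chain Lamb1 had 112 and 94.4 CPM against 322 and 310 CPM (-1.62 ± 0.16), and the proteoglycan Agrn fell by 1.17 (SE 0.16). Spp1, the secreted protein osteopontin, was higher at 364 and 312 CPM against 114 and 114 CPM (1.57 ± 0.15). Fn1, Lamb1, Agrn and Spp1 are not in the list of fibroblast markers given above, whose 3 lower members are also counted here. Which cells the RNA of these genes came from was not tested. Of 29 junction and adhesion genes, 5 were higher and 7 lower. With each library left out, 5, 3, 4 and 4 were higher and 4, 4, 3 and 4 lower. DESeq2 called 4 higher and 2 lower, and the model of all 12 libraries 3 of each. The desmosomal cadherin Dsg2 (1.44 ± 0.18) and Itgb1 rose, and the claudin Cldn6 fell by 1.92 (SE 0.37). Cldn6 was not called by DESeq2 (DESeq2 adjusted p = 0.266) or in the model of all 12 libraries (edgeR adjusted p = 0.108). Esrp1, an epithelial splicing regulator, fell by 1.86 (SE 0.23), at 29.3 and 41.8 CPM against 149 and 115 CPM. Zeb1, a repressor of epithelial genes, was higher (1.12 ± 0.33, edgeR adjusted p = 0.0126), but not without Pgk12.1 replicate 2 or E14 replicate 2, where the edgeR adjusted p was 0.682 and 0.137. DESeq2 and the model of all 12 libraries did not call Zeb1. Zeb1 and Esrp1 were the calls among 7 regulators of the epithelial to mesenchymal change.

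Genes of antigen presentation and the interferon response were lower in 7 of 17 cases (41.2%) and higher in 1, with a median of -0.72. Ifitm3, an antiviral membrane protein, was the one higher, at 121 and 67.1 CPM against 31.5 and 16.4 CPM (2.04 ± 0.28, edgeR adjusted p = 2.47e-07). Gbp2 had 4.34 and 3.89 CPM against 21.2 and 21.6 CPM (-2.36 ± 0.58), and Ifitm1 fell by 0.71 (SE 0.18). Gbp2 was not called without Pgk12.1 replicate 2, nor Ifitm1 without Pgk12.1 replicate 1 or E14 replicate 1. Of the lower members named here, Gbp2 rested on low levels in Pgk12.1. Fewer than the 7 members lower with all libraries were lower in each fit without 1 Pgk12.1 or E14 library. DESeq2 called 1 of them lower and the model of all 12 libraries none.

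Stress and amino acid genes were called upward. Of 30 ATF4 and amino acid response genes 9 were higher (30.0%) and none lower by edgeR (none by DESeq2 either), with a median of 0.14. Outside chromosome 8 and the described runs 6 of 26 were higher. Atf4 itself had 414 and 341 CPM against 198 and 237 CPM (0.78 ± 0.14, edgeR adjusted p = 3.03e-05). Psph, of serine synthesis, was higher by 0.91 ± 0.23, and Aars, a tRNA synthetase on chromosome 8, by 0.63 ± 0.12. The fits without Pgk12.1 replicate 1 or 2, or E14 replicate 1 or 2, had 5, 3, 6 and 4 higher. DESeq2 called 4, and the model of all 12 libraries 3. Psph was not called without Pgk12.1 replicate 2 or E14 replicate 2.

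Heat shock genes were higher in 4 of 13 cases (30.8%). Hsp90aa1, a major chaperone, had 8406 and 7128 CPM against 4149 and 4944 CPM (0.77 ± 0.10, edgeR adjusted p = 9.34e-08). Hspb1, a small heat shock protein, had 245 and 236 CPM against 93.0 and 119 CPM (1.16 ± 0.15), and Hspa5 and Hspd1 were higher by 0.54 ± 0.12 and 0.41 ± 0.12. Without E14 replicate 1 neither Hspa5 nor Hspd1 was called, nor was Hspd1 without Pgk12.1 replicate 1.

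NRF2 and glutathione genes were higher in 8 of 27 cases and lower in 2, but only 3 of 22 were higher outside chromosome 8 and the described runs. Those 3 were Gpx1 (147 and 162 CPM against 74.7 and 75.7 CPM), Srxn1 (1.30 ± 0.24) and, named after its value was seen, Gclm, whose call was lost without any 1 of the 4 libraries. Nqo1 (1.62 ± 0.30), Mt1 and, named after their values were seen, Gsr, Hmox1 and Mt2 are all on chromosome 8. Gpx4, which reduces lipid peroxides, was lower, at 150 and 163 CPM against 352 and 329 CPM (-1.12 ± 0.15, edgeR adjusted p = 9.08e-08). Without Pgk12.1 replicate 1 or E14 replicate 2, 5 and 4 were higher, and the model of all 12 libraries called 4.

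Of 28 p53 genes 3 were higher (10.7%, against 8.17% of all autosomal genes) and 2 lower (7.14%, against 8.72%). There was 1 lower in each fit that left out a library and with DESeq2, and 0 in the model of all 12 libraries. Pmaip1, encoding the death-promoting protein Noxa, had 84.6 and 85.6 CPM against 16.1 and 20.3 CPM (2.19 ± 0.25, edgeR adjusted p = 3.97e-09). Of 29 cholesterol genes 5 were higher (17.2%) and 2 lower (6.90%). Cyp51 and Sc4mol, enzymes of the pathway, were higher by 0.88 ± 0.16 and 1.22 ± 0.17, Sc4mol being on chromosome 8. Without Pgk12.1 replicate 1 or 2, or E14 replicate 1 or 2, 2, 3, 3 and 3 of the cholesterol genes were higher, and the lower ones were called only without E14 replicate 2 among these fits. DESeq2 and the model of all 12 libraries each called 2 higher and 0 lower. The RlimKO-labelled libraries stood above both WT lines for Cyp51, at 208 and 210 CPM.

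Among 25 germline genes 4 were higher (16.0%, against 8.17% of all autosomal genes) and 2 lower (8.0%, against 8.72%). The other 19 were not called, and the median was -0.05. Hormad1, of the meiotic chromosome axis, had 126 and 103 CPM against 31.5 and 29.8 CPM (1.90 ± 0.22, edgeR adjusted p = 6.57e-09). Syce1, of the synaptonemal complex, had 54.2 and 36.0 CPM against 9.52 and 9.08 CPM (2.26 ± 0.34), and Hormad2 was higher by 2.0 ± 0.43. Tdrd12, of the piRNA pathway, was lower (-0.94 ± 0.21), but not without Pgk12.1 replicate 2. Cell cycle genes had 6 higher (22.2%) and 2 lower (7.41%) of 27. Ccnd3, a cyclin of the first growth phase, was at 144 and 165 CPM against 84.2 and 76.1 CPM (0.96 ± 0.18). Leaving out Pgk12.1 replicate 1 or E14 replicate 2 left 3 and 2 higher. None was lower without Pgk12.1 replicate 2 or E14 replicate 2. DESeq2 called 2 higher and 0 lower, and the model of all 12 libraries 1 of each. Among the germline genes DESeq2 called 4 higher and 1 lower, and the model of all 12 libraries 3 and 0.

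Ribosomal protein genes split, with 9 of 72 higher and 17 lower around a median of -0.06. Rpl21 had 692 and 620 CPM against 352 and 321 CPM (0.96 ± 0.12), and Rps29 fell by 1.24 (SE 0.22). Their processed copies elsewhere in the genome make single members uncertain. Leaving out Pgk12.1 replicate 1 or 2, or E14 replicate 1 or 2, gave 5, 6, 4 and 4 higher and 6, 9, 10 and 12 lower. DESeq2 called 4 higher and 11 lower, and the model of all 12 libraries 4 higher and 1 lower.

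Markers of other cell types were low in both lines. Hnf4a, a nuclear receptor of visceral endoderm and liver, was higher in Pgk12.1, at 17.4 and 13.6 CPM against 2.93 and 0.432 CPM (3.38 ± 0.73, edgeR adjusted p = 0.000535), but was not called without E14 replicate 2. Of the other endoderm markers, Sox17, Sox7 and Foxa2 had no count in the 4 libraries, and the 13 markers summed to 98.7 and 116 CPM against 83.5 and 69.2 CPM, most of it Lama1. The neural stem cell marker Nes was lower (-1.09 ± 0.29), whereas Sox1 and Tubb3, both on chromosome 8, were higher by 2.43 ± 0.69 and 0.61 ± 0.22. The call of Tubb3 was lost without any 1 of the 4 libraries. That of Sox1 was lost without Pgk12.1 replicate 2 or either E14 library, and that of Nes without Pgk12.1 replicate 2 or E14 replicate 2. DESeq2 called none of these 3. Trophoblast markers summed to at most 8.06 CPM in any of the 4 libraries, and none of the 39 Hox genes had enough counts to be tested. Of 4 tested genes of the 2-cell-like state and 1 of mesoderm, edgeR called 0, with 0 at an unadjusted p below 0.05, and DESeq2 called 0.

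Setting both states side by side, 1645 of the 9738 genes were called in undifferentiated cells by the model of 6 libraries. The model of all 12 libraries, whose spread was larger, called 922 of the 9738 in differentiated cells. These counts therefore do not compare the size of the line difference between states. Within the model of all 12 libraries, 653 of 11862 autosomal genes were called between undifferentiated lines and 1080 between differentiated ones. The differentiated WT libraries held 1967780 to 5057003 kept counts, against 946043 to 2309448 in the undifferentiated ones. The numbers 653 and 1080 therefore do not compare the size of the line difference either. The 342 called in both were 20.8% of the 1645 and 37.1% of the 922, shares that depend on the models used. Of these 342, 311 had the same direction, and 31 opposite directions. The 2 comparisons share no library, but they share the lines. Each used the spread of its own model, and the undifferentiated libraries also enter the spread of the larger one.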

How the data were processed

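RNA was measured by sequencing of template-switched cDNA, tagmented and amplified by PCR, per the labels' protocols. The deposited table holds raw read counts per gene symbol. Per the submitters' processing notes, bcl2fastq 2.16.0.10, TopHat2 2.0.12, HTSeq 0.6.1p1, edgeR 3.10.0 and the build mm10 were used. The annotation and strand setting are not given in the sources used here. The library type does not mark strand, so overlapping genes on opposite strands cannot be told apart, and without molecular identifiers intervals cover counting error only.

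Here, summary entries, Rn45s and Lars2 were dropped, and 23107 of 23336 symbols (99.02%) were placed on chromosomes. The 6 undifferentiated libraries were fitted together in edgeR 4.0.16 (R 4.3.3) with TMM scaling, filterByExpr and the quasi-likelihood F test, with Benjamini-Hochberg adjustment over the 10179 genes tested. The differentiated lines, and the change of the line difference between states, were tested in a model of all 12 libraries. An exact permutation test of 2 libraries against 2 cannot give a two-sided p below 0.33. Runs used log2(CPM + 2) in pairs of libraries. The fit was tested on simulated data. Alternatives were DESeq2 1.42.0, other scalings, filters and models, a replicate block and leaving out each library.

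The text names the 15 largest rises and 15 largest falls with at least 10 CPM and no overlap between lines. It also names up to 4 called members of each of 34 gene lists with the smallest p, and the 3 genes with the smallest p in each described run. The members and lists were chosen with earlier results of these data known.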

Additional observations from a re-analysis of the deposited data

Results flagged for a closer look

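For 23 of the genes named in the report, the difference between Pgk12.1 and E14 itself differed between undifferentiated and differentiated cells, by a test of that difference in the model of all 12 libraries (edgeR, adjusted p from 1.21e-05 for Grb10 to 0.0496 for Slc25a4). The change is given as the differentiated minus the undifferentiated log2 line difference. Most of these genes were named for their undifferentiated difference, which is the value subtracted, so a change towards 0 is favoured by that choice and nothing is read from the directions.

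When each of the 8 WT libraries of both states was left out in turn, only Bnip3, Emp1, Grb10 and Rcsd1 passed every time. Of the 23, 5 and 4 were called without differentiated Pgk12.1 replicate 1 and 2, 4 and 9 without undifferentiated Pgk12.1 replicate 1 and 2, and 7 and 8 without undifferentiated E14 replicate 1 and 2. Without differentiated E14 replicate 1 all 23 were called, and without replicate 2 all but Msln, Notum and Pmaip1 (edgeR adjusted p = 0.153, 0.174 and 0.0581).

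For these 4 genes, the change was 2.22 for Bnip3, -3.43 for Emp1, -3.71 for Grb10 and -5.10 for Rcsd1. Rcsd1 reached 45.0 and 47.7 CPM in differentiated Pgk12.1 and 37.2 and 52.9 CPM in differentiated E14, whose ranges overlapped.

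Among the genes whose call was lost in at least 1 of these fits, Thbs1 changed by 3.15, Tagln by 3.06, Irs1 by 2.94, Lef1 by 2.49, Nes by 2.03, Cnn2 by 1.75 and Gpx4 by 1.17. The change was 2.36 for Hif3a, 2.21 for Egln3, 2.02 for Ldhb, 1.71 for Pfkl and 1.05 for Pkm2. It was -4.18 for Smyd1, -3.93 for Msln, -2.84 for Notum, -1.87 for Pmaip1, -0.99 for Atf4, -0.88 for Slc25a4 and 1.85 for Lefty2.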

How the results depend on the processing

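The count of 1645 autosomal calls (796 higher, 849 lower) fell to 725 with DESeq2 (376 higher, 349 lower) and to 653 in the model of all 12 libraries (313 higher, 340 lower). It was 648 when a log2 difference of at least 1 was also asked (273 higher, 375 lower). Leaving out 1 of the 6 libraries gave 879 to 1778 calls, 436 to 852 higher and 443 to 932 lower, the low ends without Pgk12.1 replicate 1 and the high ends without an RlimKO-labelled library. Counts under other scalings, filters, the 4 libraries alone and each RlimKO-labelled library left out stayed within 1.5 times. The filter of 20 CPM was chosen after seeing the data. Leaving out 1 library gave 166 to 4030 calls between differentiated lines, against 1080, and 13 to 1691 genes whose line difference changed between states, against 136. The described runs, 8 with all libraries, numbered 11 to 16 when 1 was left out, 16 without E14 replicate 2. Fewer pairs then had to pass the limit, so this number could only stay or rise. The cause of the shifts in the counts of calls was not tested.

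Same-numbered libraries did not deviate together (correlations of -0.002, -0.036 and 0.093), so the numbers were not taken to pair samples. With a replicate block 1754 genes were called (852 higher, 902 lower), 1106 between differentiated lines and 148 for the change between states.

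Of 147 named genes that were called, 110 were called in every fit without 1 of the 4 libraries, 126 with DESeq2 and 105 in the model of all 12 libraries. None changed direction in any alternative run. With 2 libraries per line and 39.3% to 55.0% of counts in Rn45s, genes below 10 CPM rest on few counts.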

Other observations

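Pramel6 and Pramel7, genes of the 2-cell-like list with too few counts to be tested, had 16 and 20 counts in the Pgk12.1 libraries together and 0 in E14. Pramel6 stood at 8.68 and 7.79 CPM in Pgk12.1 and at 3.69 and 7.0 CPM in the RlimKO-labelled libraries. Pramel7 stood at 13.0 and 7.79 CPM in Pgk12.1 and at 0 and 3.50 CPM in the RlimKO-labelled libraries. Both were named after their values were seen.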
